A study of Homo sapiens with 12 samples.

Results

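The effect of an siRNA against ATF6 and the effect of the compound Ceapin-A7 were set against each other, gene by gene, in DU145 cells under stress of the endoplasmic reticulum (ER). For every gene, the log2 change of Ceapin over DMSO (the Ceapin effect) was subtracted from the log2 change of siATF6 over siCtrl (the siRNA effect), in 1 model of all 12 libraries. A positive difference means that the siRNA effect lay above the Ceapin effect, and a negative difference that it lay below. All 12 libraries and all genes that passed a filter on low counts were taken, which left 17823 of 21439 genes.

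ATF6 is a transcription factor that is made as a membrane protein of the ER. When unfolded proteins build up, it moves to the Golgi and is cut there, and the released part turns on genes for ER chaperones and for ER-associated degradation. The unfolded protein response has 2 further branches, in which the kinase IRE1 (gene ERN1) splices the mRNA of the factor XBP1, and the kinase PERK (EIF2AK3) raises translation of ATF4, which in turn raises transcription of DDIT3, the gene of CHOP. An siRNA lowers ATF6 mRNA, whereas Ceapin-A7 acts on the protein, which it holds in the ER by tethering it to the peroxisomal membrane protein ABCD3.

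DU145 is an established human prostate cancer cell line that grows without androgen. siATF6 cells were transfected with ATF6 siRNA and siCtrl cells with the Allstar control siRNA, and both were cultured for 24 h. Ceapin cells received 10 µM Ceapin-A7 and DMSO cells its solvent, for 12 h. All 4 groups, with 3 libraries each, received 30 nM thapsigargin, which blocks the calcium pump of the ER and so brings on ER stress, for 3 h, and none of the libraries comes from unstressed cells. The arms differ in agent, handling and time at once, and these cannot be told apart in a difference between the effects. The labels do not say whether the 3 replicates of a group were separate cultures, so p-values measure the spread between these libraries, which may be technical. A further label field names the control siRNA for the DMSO samples and the ATF6 siRNA for the Ceapin samples, against their titles and treatment text, and the ATF6 level below bears on the second of these.

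Library totals ran from 17760878 to 19202632 counts. In a principal component analysis the 2 arms separated on the first component (62.4% of the variance) and siATF6 separated from siCtrl on the second (8%). The references of the 2 arms differed from each other: DMSO against siCtrl was called in 11026 genes (61.9% of those tested). Each effect was therefore computed against the reference of its own arm. Where levels are set against libraries of the other arm, this only describes their order. Transcripts of the mitochondrial genome took 7.36% ± 0.19 of the counts in siATF6, 6.94% ± 0.256 in siCtrl, 10.25% ± 0.222 in Ceapin and 9.92% ± 0.359 in DMSO (mean ± SD, n = 3 each). Epithelial keratins were found in all groups, and KRT8 stood at 149, 164 and 154 CPM in the siATF6 libraries, against 171, 177 and 171 CPM in the siCtrl libraries, and at 659, 611 and 622 CPM in the Ceapin libraries, against 641, 663 and 654 CPM in the DMSO libraries. Of 19 marker genes of leukocytes, fibroblasts and endothelium 9 could be tested. They summed to between 9.03 and 12.2 CPM per library, and none of the 9 had a called difference.

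The effects of the 2 agents were unequal for a large share of the genes tested, and most of the unequal genes were called with the siRNA alone. The difference was called in 4167 genes (23.4% of those tested), of which 2194 (12.3%) were higher and 1973 (11.1%) lower for the siRNA, at an edgeR adjusted p under 0.05. The balance of directions turned with the scaling: of the called genes 52.7% were higher with TMM scaling and 46.2% with plain library totals. The siRNA effect by itself was called in 5589 genes (31.4%), with 2869 (16.1%) that rose and 2720 (15.3%) that fell. The Ceapin effect was called in 823 genes (4.62%), with 394 (2.21%) that rose and 429 (2.41%) that fell, and without Ceapin replicate 3 the number that fell was 272. The median size of a called difference was 0.295 on the log2 scale, a 1.23-fold inequality, and the median difference over all tested genes was −0.002. A called difference of at least 1 on the log2 scale was found in 54 genes (0.303%) in the higher and 144 (0.808%) in the lower direction. In these bulk libraries a change in the make-up of the culture and a change of RNA per cell cannot be told apart.

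Both effects were called in 488 genes (2.74%), in 1 direction in 258 of them (1.45%). Genes with a called difference were sorted by which of their effects was called. In 3293 genes (79.0% of the 4167 and 18.5% of the tested genes) the siRNA effect was called alone, and in 212 genes (5.09% and 1.19%) the Ceapin effect was called alone. In 230 genes (5.52% of the called and 1.29% of the tested genes) both effects were called and ran in opposite directions, 115 (0.645%) with the siRNA effect up and the Ceapin effect down, and 115 (0.645%) the other way round. Both effects were called in 1 direction, with the siRNA effect the larger in 47 genes (0.264%) and the Ceapin effect the larger in 27 (0.151%). The count of 47 became 25, 31 and 19 without Ceapin replicates 1, 2 and 3, and 23, 31 and 23 without DMSO replicates 1, 2 and 3. In the remaining 358 genes (2.01%) neither effect passed the threshold by itself. For comparison, 184 genes (1.03%) had both effects called in 1 direction with no called difference between them.

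Among the opposite genes, those with a positive difference had median effects of 0.18 for the siRNA and −0.14 for Ceapin, and those with a negative difference −0.23 for the siRNA and 0.22 for Ceapin. Of the 230, 101 (43.9%) kept both opposite calls and the called difference in each of the 12 fits that left out 1 library. The siATF6 and siCtrl libraries did not overlap in 41.4% of all tested genes, and the Ceapin and DMSO libraries in 20.6%. Groups also stood apart from all others. All 3 siCtrl libraries lay above or below the other 9 libraries in 23.5% and 28.1% of the called genes (10.2% and 10.5% of all tested genes), and the siATF6 libraries in 19.2% and 20.6% (8.73% and 8.27%). For the Ceapin libraries these shares were 4.13% and 5.9% (3.06% and 3.67%), and for the DMSO libraries 8.9% and 8.42% (4.54% and 4.48%).

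Calls depended on how deeply a gene was counted. At a mean of 50 CPM or more the difference was called in 50.1% of 4614 genes, higher in 30.1% and lower in 20%, among genes between 5 and 50 CPM in 24.0% of 6592 (11.1% higher and 12.9% lower), and below 5 CPM in 4.14% of 6617 (1.13% higher and 3.01% lower). Well-counted genes thus leaned to a higher difference, and counts of list members are read against these shares. The median standard error of the difference was 0.0461, 0.0972 and 0.386 on the log2 scale in these 3 classes, so a 1.23-fold inequality lay within the error of a typical gene below 5 CPM.

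**Figure D1:**
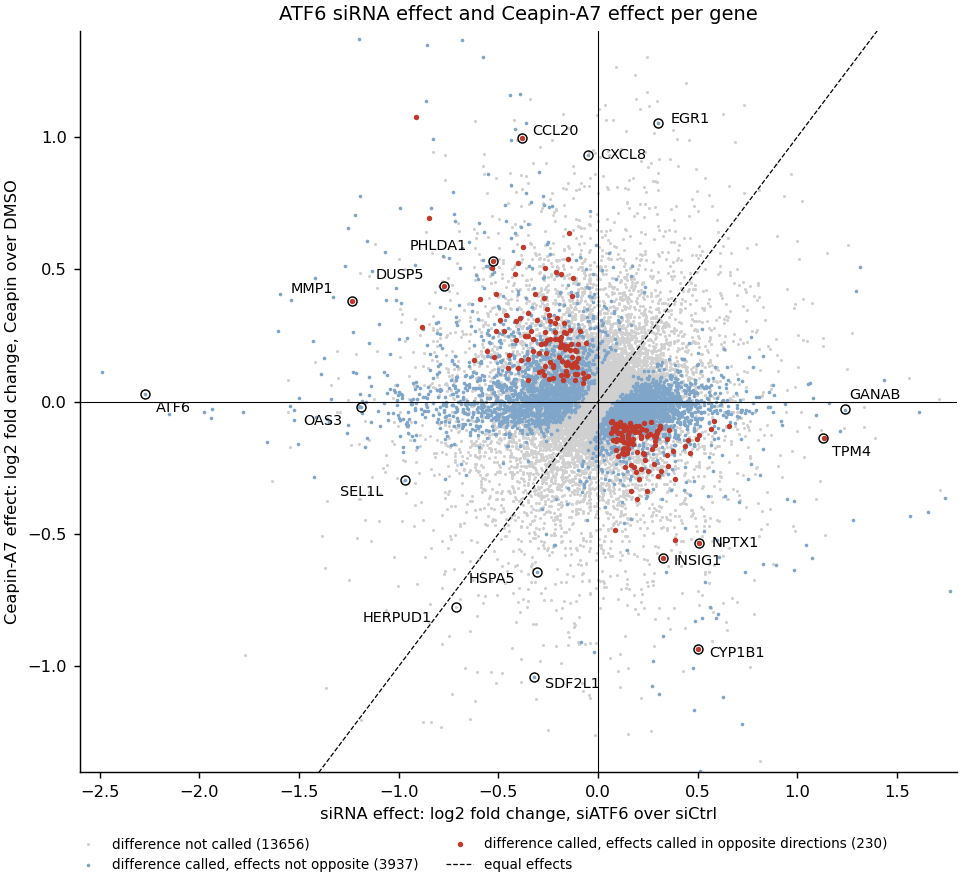
Each point is 1 tested gene, with the siRNA effect (log2 fold change, siATF6 over siCtrl) on the x axis and the Ceapin effect (log2 fold change, Ceapin over DMSO) on the y axis; genes on the dashed line have equal effects, and 17 genes lie outside the axes. Many genes with a called difference spread along the x axis close to a Ceapin effect of 0, the 230 opposite genes fill the upper left and lower right fields, and HERPUD1 lies near the line of equal effects.

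ATF6 mRNA fell with the siRNA, and no change with Ceapin-A7 was called. ATF6 (ENSG00000118217; GRCh38 chromosome 1, 161766294 to 161964070, + strand) stood at 26.6, 25.6 and 25.0 CPM in the siATF6 libraries, against 123, 126 and 125 CPM in the siCtrl libraries, and at 73.2, 70.9 and 74.7 CPM in the Ceapin libraries, against 69.3, 73.3 and 71.5 CPM in the DMSO libraries. The siATF6 libraries lay below all others, while Ceapin and DMSO libraries overlapped. The siRNA effect was −2.27 (SE 0.0379), the Ceapin effect 0.03 (SE 0.0344, edgeR adjusted p = 0.748), and the difference −2.30 (log2, SE 0.0522, edgeR adjusted p = 1.74e-25). No loss of ATF6 mRNA was thus seen in the libraries labelled Ceapin, and the mRNA level cannot show whether DMSO cells had received a control siRNA.

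Among 17 tested genes of the stress sensors and their partners, the difference was higher in 5 and lower in 5 (29.4% each). The shares were 12.3% higher and 11.1% lower over all tested genes, and 30.1% and 20% over those at 50 CPM or more. ATF6, the target of the siRNA, was among the lower members. ERN1, which encodes the sensor IRE1, ran in opposite directions. It stood at 60.1, 56.9 and 58.8 CPM in the siATF6 libraries, against 63.1, 70.2 and 66.3 CPM in the siCtrl libraries, and at 46.6, 44.2 and 43.2 CPM in the Ceapin libraries, against 32.9, 31.0 and 31.8 CPM in the DMSO libraries. The libraries of each arm did not overlap, with siATF6 below siCtrl and Ceapin above DMSO. The effects were −0.19 for the siRNA and 0.49 for Ceapin, a difference of −0.67 (log2, SE 0.0633, edgeR adjusted p = 4.63e-10). XBP1, the factor downstream of IRE1, had effects of −0.05 for the siRNA and 0.07 for Ceapin, neither of them called, with a difference of −0.12 (log2, SE 0.0400, edgeR adjusted p = 0.028), and this call was lost with DESeq2 and held in 7 of the 12 fits without 1 library. ABCD3, the tether of Ceapin-A7, showed no called effect in either arm (0.10 for the siRNA and −0.03 for Ceapin).

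Most ER chaperone genes fell with each agent, and which effect was the lower depended on the gene. Of 19 tested members, 13 fell and 1 rose with the siRNA, and 12 fell and none rose with Ceapin, with medians of −0.24 for the siRNA and −0.23 for Ceapin. The difference was higher in 6 (31.6%) and lower in 3 (15.8%), shares near the 30.1% and 20% of all genes at 50 CPM or more. It was higher, with the deeper fall under Ceapin, in SDF2L1, HSPA5, DNAJB11, MANF and HSP90B1, and higher with opposite effects in CALR. It was lower in DNAJB9, with the deeper fall under the siRNA, and in SERP1 and DNAJC10, which were called with the siRNA alone.

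Promoters of ER stress genes are known to hold elements bound by ATF6 together with the factor NF-Y: the ER stress response element, spelled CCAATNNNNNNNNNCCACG, and the shorter ERSE-II, spelled ATTGGNCCACG. Both strands were searched from 250 bases before to 50 after each start in RefSeq promoters of GRCh38.p14. ERSE was found in 6 of 18 chaperone promoters (33.3%) and in 22 of all 27305 promoters (0.0806%), and ERSE-II in 2 of the 18 (11.1%) and in 15 of all (0.0549%). HERPUD1, whose element is also shown, was counted in the ER-associated degradation list and not among the 18. All matches in the chaperone list are shown, written on the strand of the element with its fixed letters in capitals, so that genes with different responses can be compared.
HSPA5 (ERSE, chr9:125241391-125241409, − strand): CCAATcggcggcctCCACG
HSP90B1 (ERSE, chr12:103930216-103930234, + strand): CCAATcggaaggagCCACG
HSP90B1 (ERSE, chr12:103930321-103930339, − strand): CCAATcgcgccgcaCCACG
CALR (ERSE, chr19:12938384-12938402, − strand): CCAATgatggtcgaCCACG
CANX (ERSE, chr5:179698778-179698796, + strand): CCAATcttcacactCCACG
CRELD2 (ERSE, chr22:49918554-49918572, − strand): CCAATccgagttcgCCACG
SERP1 (ERSE, chr3:150546710-150546728, + strand): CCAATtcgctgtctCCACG
SDF2L1 (ERSE-II, chr22:21642114-21642124, − strand): ATTGGtCCACG
HYOU1 (ERSE-II, chr11:119057380-119057390, + strand): ATTGGaCCACG
HYOU1 (ERSE-II, chr11:119057274-119057284, + strand): ATTGGaCCACG
HERPUD1 (ERSE-II, chr16:56932025-56932035, + strand): ATTGGgCCACG
Among the genes shown, the difference was higher in HSPA5, HSP90B1, CALR and SDF2L1, lower in SERP1 and not called in CANX, CRELD2, HYOU1 and HERPUD1.

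HSPA5 (GRCh38 chromosome 9, 125234853 to 125241330, − strand) encodes BiP, the main chaperone of the ER lumen. It stood at 1131, 1121 and 1115 CPM in the siATF6 libraries, against 1397, 1363 and 1397 CPM in the siCtrl libraries, and at 941, 932 and 944 CPM in the Ceapin libraries, against 1473, 1459.9 and 1464 CPM in the DMSO libraries. In each arm all 3 treated libraries lay below all 3 references, and the Ceapin libraries were the lowest of the 12. The siRNA effect was −0.30 (SE 0.0183) and the Ceapin effect −0.64 (SE 0.0184), which left a difference of 0.34 (log2, SE 0.0259, edgeR adjusted p = 3.6e-12). SDF2L1 (GRCh38 chromosome 22, 21642261 to 21644298, + strand), a partner of BiP and its co-chaperones, was measured at low counts. It stood at 5.60, 6.38 and 5.46 CPM in the siATF6 libraries, against 7.02, 8.20 and 6.52 CPM in the siCtrl libraries, and at 5.66, 6.82 and 6.25 CPM in the Ceapin libraries, against 12.6, 12.7 and 13.2 CPM in the DMSO libraries. The 3 DMSO libraries lay above all others, with effects of −0.32 for the siRNA and −1.04 for Ceapin and a difference of 0.72 (log2, SE 0.149, edgeR adjusted p = 0.00037). The siRNA call of SDF2L1 held in 9 of the 12 fits without 1 library and was lost with DESeq2 (adjusted p = 0.0714).

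DNAJB11, a co-chaperone of BiP, fell by less with the siRNA (−0.22) than with Ceapin (−0.54), a difference of 0.33 (log2, SE 0.0434, edgeR adjusted p = 5.13e-07). MANF, a secreted ER protein that binds BiP, had effects of −0.26 for the siRNA and −0.50 for Ceapin, and HSP90B1, the ER form of HSP90, −0.28 for the siRNA and −0.41 for Ceapin. CALR, the lectin chaperone calreticulin, moved in opposite directions. It stood at 449, 479.8 and 467 CPM in the siATF6 libraries, against 423, 423 and 418 CPM in the siCtrl libraries, and at 473, 464 and 472 CPM in the Ceapin libraries, against 529, 537 and 545 CPM in the DMSO libraries. siATF6 lay above siCtrl and Ceapin below DMSO without overlap, and the difference was 0.34 (log2, SE 0.0318, edgeR adjusted p = 4.29e-10). In SERP1, a protein that stabilises membrane proteins at the translocon, the siRNA effect was −0.59 and the Ceapin effect −0.05, with 143, 136 and 127 CPM in the siATF6 libraries, against 203, 206 and 202 CPM in the siCtrl libraries, and 129.8, 128 and 128 CPM in the Ceapin libraries, against 133, 136 and 131 CPM in the DMSO libraries. The siCtrl libraries of SERP1 lay above all others. DNAJB9, a further BiP co-chaperone, had effects of −0.48 for the siRNA and −0.23 for Ceapin, and DNAJC10, an ER disulfide reductase, −0.32 for the siRNA and −0.07 for Ceapin.

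**Figure D2:**
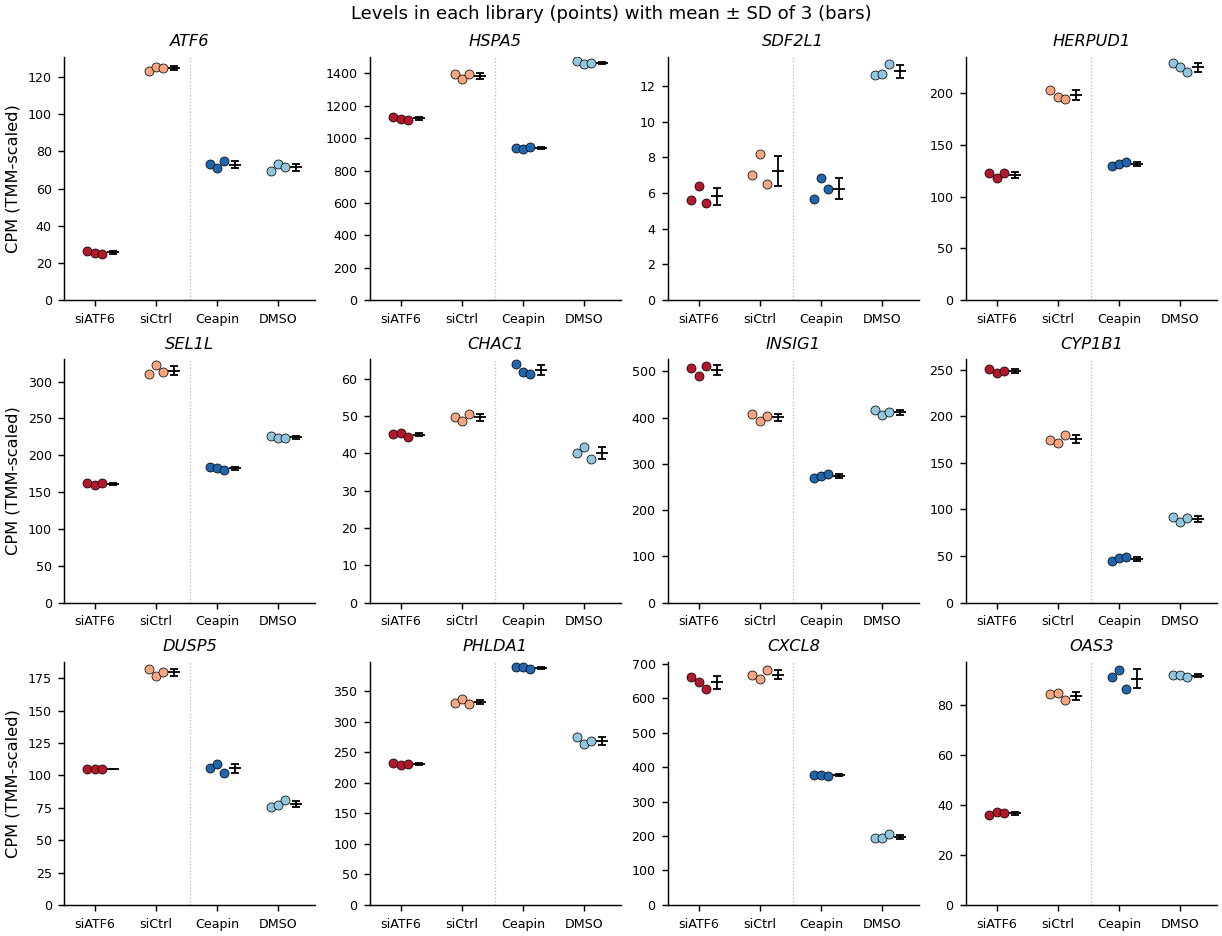
Points are the TMM-scaled CPM of each library for 12 genes, and bars give the mean ± SD of 3 libraries per group, in the order siATF6, siCtrl, Ceapin and DMSO. HSPA5, SDF2L1 and HERPUD1 lie lower under both agents, SEL1L falls more with the siRNA, OAS3 is lower in siATF6 only, CXCL8 separates in the compound arm and overlaps in the siRNA arm, and CHAC1, INSIG1, CYP1B1, DUSP5 and PHLDA1 move in opposite directions in the 2 arms.

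The difference was not called in 10 of the 19 chaperone genes, HYOU1 among them, nor in HERPUD1. HERPUD1 (GRCh38 chromosome 16, 56932048 to 56944863, + strand), a scaffold of the ER degradation machinery, stood at 122, 118 and 123 CPM in the siATF6 libraries, against 203, 196 and 195 CPM in the siCtrl libraries, and at 129, 132 and 133 CPM in the Ceapin libraries, against 229, 225 and 221 CPM in the DMSO libraries. Treated libraries lay below their references in both arms, with effects of −0.71 (SE 0.0271) for the siRNA and −0.78 (SE 0.0265) for Ceapin and a difference of 0.07 (log2, SE 0.0381, edgeR adjusted p = 0.252). HYOU1, a large ER chaperone, had effects of −0.24 for the siRNA and −0.30 for Ceapin and a difference of 0.06 (log2, SE 0.0332, edgeR adjusted p = 0.193). A p above the threshold does not show that the effects were equal.

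ER-associated degradation, which returns misfolded proteins to the cytosol for the proteasome, held members with a lower and with a higher difference. Of 24 tested members the difference was lower in 8 (33.3%) and higher in 5 (20.8%), against 20% and 30.1% of all genes at 50 CPM or more. With the siRNA 4 members rose and 9 fell, and with Ceapin none rose and 5 fell. SEL1L (GRCh38 chromosome 14, 81471549 to 81533861, − strand), the adaptor of the ubiquitin ligase HRD1, stood at 162, 159 and 162 CPM in the siATF6 libraries, against 310.2, 322 and 313 CPM in the siCtrl libraries, and at 184, 183 and 180.3 CPM in the Ceapin libraries, against 227, 223 and 223 CPM in the DMSO libraries. Both treated groups lay below their references, with an siRNA effect of −0.97 (SE 0.0235), a Ceapin effect of −0.30 (SE 0.0241) and a difference of −0.67 (log2, SE 0.0337, edgeR adjusted p = 9.73e-17). FAF2, which brings the ATPase p97 to the ER membrane, moved with the siRNA alone. It stood at 119, 108 and 111 CPM in the siATF6 libraries, against 228, 227 and 225 CPM in the siCtrl libraries, and at 228, 227 and 218 CPM in the Ceapin libraries, against 229.7, 226 and 225 CPM in the DMSO libraries. Only the siATF6 libraries stood apart, and the difference was −0.99 (log2, SE 0.0388, edgeR adjusted p = 1.66e-19). DERL1, a channel component (−0.73 for the siRNA and −0.01 for Ceapin), was likewise called for the siRNA alone. UBXN4, SYVN1, UFD1, DERL2 and AUP1 were the 5 members with a higher difference. SYVN1, the ligase HRD1 itself, had effects of −0.08 for the siRNA and −0.24 for Ceapin.

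In other genes of the secretory pathway the difference was higher in 9 and lower in 4 of 25 folding enzymes (36% and 16.0%), higher in 11 and lower in 2 of 27 coat and cargo genes between ER and Golgi (40.7% and 7.41%), and higher in 7 and lower in 4 of 31 genes of protein entry into the ER (22.6% and 12.9%). Over all genes at 50 CPM or more these shares were 30.1% and 20%, close to those of the folding enzymes. GANAB, the glucosidase that trims new glycans, was called with the siRNA alone. It stood at 728, 760.0 and 770.4 CPM in the siATF6 libraries, against 319, 323 and 314 CPM in the siCtrl libraries, and at 716, 684 and 706 CPM in the Ceapin libraries, against 719.5, 713 and 716 CPM in the DMSO libraries. The siCtrl libraries were far below the other 9, which lay within 684 and 770.4 CPM, and the difference was 1.27 (log2, SE 0.0321, edgeR adjusted p = 1.3e-24). Because the arms differ in agent, handling and time, this order cannot show which of the siRNA groups had moved. PRDX4, an ER peroxidase, had effects of 1.10 for the siRNA and −0.05 for Ceapin. P4HB, a disulfide isomerase, ran in opposite directions with 0.30 for the siRNA and −0.11 for Ceapin, and a difference of 0.41 (log2, SE 0.0313, edgeR adjusted p = 4.45e-12). SPCS3, part of the enzyme that removes signal peptides, fell with the siRNA alone. It stood at 46.3, 43.7 and 45.0 CPM in the siATF6 libraries, against 87.1, 89.6 and 92.9 CPM in the siCtrl libraries, and at 83.4, 86.1 and 80.7 CPM in the Ceapin libraries, against 85.4, 89.0 and 86.5 CPM in the DMSO libraries. LMAN1, a cargo receptor for glycoproteins, followed the same pattern (−0.61 for the siRNA and −0.06 for Ceapin).

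Targets of PERK, ATF4 and CHOP rose with Ceapin for the most part and were split with the siRNA. Of 34 tested members, 13 rose and 8 fell with the siRNA, and 23 rose and 1 fell with Ceapin, with medians of 0.05 for the siRNA and 0.19 for Ceapin. The difference was lower in 15 (44.1%) and higher in GPT2, TRIB3 and PHGDH. Of all tested genes 11.1% were lower, and of those at 50 CPM or more 20%. CHAC1, which degrades glutathione, stood at 45.0, 45.4 and 44.5 CPM in the siATF6 libraries, against 49.7, 48.7 and 50.6 CPM in the siCtrl libraries, and at 63.8, 61.7 and 61.3 CPM in the Ceapin libraries, against 39.9, 41.8 and 38.4 CPM in the DMSO libraries. The siATF6 libraries lay below siCtrl and the Ceapin libraries above DMSO, with effects of −0.14 for the siRNA and 0.64 for Ceapin and a difference of −0.78 (log2, SE 0.0567, edgeR adjusted p = 1.04e-12). SLC7A11, the cystine importer, went the same ways. It stood at 309, 286 and 301 CPM in the siATF6 libraries, against 364, 380.3 and 376 CPM in the siCtrl libraries, and at 174, 172 and 172 CPM in the Ceapin libraries, against 149, 142 and 148 CPM in the DMSO libraries, a difference of −0.56 (log2, SE 0.0394, edgeR adjusted p = 4.49e-13). CEBPG (−0.21 for the siRNA and 0.24 for Ceapin), a partner of ATF4, and SLC1A4 (−0.19 for the siRNA and 0.24 for Ceapin), a neutral amino acid transporter, completed the 4 opposite members.

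TRIB3, a pseudokinase that CHOP and ATF4 turn on, rose in both arms. It stood at 226, 235 and 233 CPM in the siATF6 libraries, against 162, 163 and 158 CPM in the siCtrl libraries, and at 150.2, 146 and 152 CPM in the Ceapin libraries, against 119, 124 and 127 CPM in the DMSO libraries, and the siRNA effect of 0.52 exceeded the Ceapin effect of 0.27 by 0.25 (log2, SE 0.0389, edgeR adjusted p = 6.79e-06). ATF4 itself rose in both arms by 0.16 with the siRNA and 0.12 with Ceapin, a difference of 0.04 (log2, SE 0.0294, edgeR adjusted p = 0.39). DDIT3, which encodes CHOP, had −0.26 with the siRNA and −0.35 with Ceapin, both lower, and a difference of 0.10 (log2, SE 0.0635, edgeR adjusted p = 0.321). Of all genes at 50 CPM or more the difference was higher in 30.1% and lower in 20%. Among the enzymes that charge tRNAs, 8 of 20 had a higher (40%) and 5 a lower difference (25.0%). YARS1, the tyrosine enzyme, had the largest of the lower ones (−1.04 for the siRNA and 0.05 for Ceapin).

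Genes of cholesterol synthesis fell with Ceapin and were split with the siRNA. Of 25 tested members, 10 rose and 6 fell with the siRNA, while 17 fell and none rose with Ceapin. The difference was higher in 16 (64.0%) and lower in 1. Of all tested genes 12.3% were higher, and of those at 50 CPM or more 30.1%. In 8 members, among them FDPS, INSIG1, FDFT1, SQLE, DHCR7, MVK and MVD, the effects ran in opposite directions. For FDPS and FDFT1 the opposite calls did not hold in every fit without 1 library. The medians were 0.04 for the siRNA, −0.16 for Ceapin and 0.18 for the difference.

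INSIG1 (GRCh38 chromosome 7, 155297776 to 155310235, + strand) holds back SCAP, the escort of the sterol-regulated factor SREBP2, in the ER and is itself a target of that factor. It stood at 507, 491 and 511 CPM in the siATF6 libraries, against 407, 393 and 403 CPM in the siCtrl libraries, and at 269, 273 and 279 CPM in the Ceapin libraries, against 417, 406 and 411 CPM in the DMSO libraries. All siATF6 libraries lay above siCtrl and all Ceapin libraries below DMSO. The siRNA effect was 0.33 (SE 0.0221), the Ceapin effect −0.59 (SE 0.0233) and the difference 0.92 (log2, SE 0.0321, edgeR adjusted p = 8.76e-21). HMGCS1, which makes the precursor of mevalonate, moved with Ceapin alone. It stood at 1075, 1029 and 1029 CPM in the siATF6 libraries, against 1022, 1014 and 1019 CPM in the siCtrl libraries, and at 718, 739 and 729.8 CPM in the Ceapin libraries, against 884, 892 and 903 CPM in the DMSO libraries, a difference of 0.33 (log2, SE 0.0287, edgeR adjusted p = 7.36e-11). MVD, a later enzyme of the mevalonate pathway, had effects of 0.21 for the siRNA and −0.29 for Ceapin, and IDI1, the next one, fell in both arms (−0.16 for the siRNA and −0.39 for Ceapin). Among 18 genes of fatty acid synthesis 6 fell with Ceapin, and the difference was higher in 5 and lower in 2 (27.8% and 11.1%). Over all genes at 50 CPM or more these shares were 30.1% and 20%. SCD, a desaturase, had effects of 0.03 for the siRNA and −0.22 for Ceapin. FASN, the fatty acid synthase, was called opposite (0.09 for the siRNA and −0.18 for Ceapin), but its siRNA call held in only 9 of the 12 fits without 1 library.

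Genes of growth factor signalling through ERK had lower differences. The list holds feedback inhibitors and other ERK targets together with receptors and ligands of the EGF family. Of 19 tested members the difference was lower in 17 (89.5%, against 20% of all genes at 50 CPM or more) and higher in none, with medians of −0.18 for the siRNA and 0.15 for Ceapin. With the siRNA 13 fell and 1 rose, and with Ceapin 13 rose and none fell. Opposite calls were made in 8 members, EPHA2, SPRED2, AREG, SPRY4, EGFR, DUSP5, PHLDA1 and SPRED1, and only ERBB2 and SPRY2 had no called difference. For EGFR and SPRED1 the opposite calls did not hold in every fit without 1 library.

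DUSP5 (GRCh38 chromosome 10, 110497838 to 110511544, + strand), a phosphatase that inactivates ERK in the nucleus, stood at 105, 105 and 105 CPM in the siATF6 libraries, against 182, 177 and 179.9 CPM in the siCtrl libraries, and at 105, 109 and 102 CPM in the Ceapin libraries, against 75.6, 77.4 and 80.7 CPM in the DMSO libraries. The siATF6 libraries lay below siCtrl and the Ceapin libraries above DMSO, with effects of −0.77 (SE 0.0285) for the siRNA and 0.44 (SE 0.0327) for Ceapin and a difference of −1.21 (log2, SE 0.0434, edgeR adjusted p = 1.61e-20). PHLDA1 (GRCh38 chromosome 12, 76025447 to 76033932, − strand), a gene induced by ERK signalling, had effects of about equal size and opposite sign. It stood at 233, 228 and 229.9 CPM in the siATF6 libraries, against 331, 336 and 329 CPM in the siCtrl libraries, and at 389, 389 and 386 CPM in the Ceapin libraries, against 274, 263 and 268 CPM in the DMSO libraries. The effects were −0.53 for the siRNA and 0.53 for Ceapin, and the difference was −1.06 (log2, SE 0.0315, edgeR adjusted p = 1.3e-22). SPRY4, an inhibitor of receptor signalling, was lower with the siRNA (−0.37) and higher with Ceapin (0.58). EGFR, the receptor, had effects of −0.35 for the siRNA and 0.08 for Ceapin, and the Ceapin call held in 8 of the 12 fits without 1 library. HBEGF, an EGF family ligand, was called with Ceapin alone (−0.06 for the siRNA and 0.50 for Ceapin). EGR1, an immediate-early gene downstream of ERK, rose in both arms and more with Ceapin. It stood at 17.9, 23.0 and 19.6 CPM in the siATF6 libraries, against 16.6, 15.1 and 17.4 CPM in the siCtrl libraries, and at 11.5, 10.9 and 13.0 CPM in the Ceapin libraries, against 5.80, 5.71 and 5.54 CPM in the DMSO libraries, a difference of −0.75 (log2, SE 0.137, edgeR adjusted p = 8.07e-05). Over 22 immediate-early genes as a list the difference was lower in 4 (18.2%) and higher in 1 (4.55%). The shares of all genes at 50 CPM or more were 20% lower and 30.1% higher.

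Targets of NF-kB and cytokine genes had lower differences too. Of 21 tested members the difference was lower in 16 (76.2%, against 20% of all genes at 50 CPM or more) and higher in none. With the siRNA 1 rose and 10 fell, and with Ceapin 12 rose and none fell, with medians of −0.11 for the siRNA and 0.27 for Ceapin. CCL20, CSF2, IL6, TRAF1, NFKB2, BIRC3 and ICAM1 were called in opposite directions. For CSF2, IL6 and NFKB2 the opposite calls did not hold in every fit without 1 library.

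CXCL8 (GRCh38 chromosome 4, 73740506 to 73743716, + strand), the neutrophil chemokine IL-8, was called with Ceapin alone. It stood at 663, 647 and 627 CPM in the siATF6 libraries, against 667, 657 and 681 CPM in the siCtrl libraries, and at 378, 377 and 373 CPM in the Ceapin libraries, against 193, 193 and 205 CPM in the DMSO libraries. The siATF6 and siCtrl libraries overlapped, whereas every Ceapin library was well above every DMSO library. The siRNA effect was −0.05 (edgeR adjusted p = 0.0967), the Ceapin effect 0.93 (SE 0.0260) and the difference −0.98 (log2, SE 0.0345, edgeR adjusted p = 8.94e-21). The DMSO level of CXCL8 was far below the siCtrl level. CXCL1, a related chemokine, had effects of −0.04 for the siRNA and 0.72 for Ceapin.

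BIRC3, an inhibitor of apoptosis, moved in both arms. It stood at 156, 145 and 148 CPM in the siATF6 libraries, against 206, 199.6 and 213 CPM in the siCtrl libraries, and at 233, 227 and 226 CPM in the Ceapin libraries, against 185, 179.6 and 182 CPM in the DMSO libraries. The order was siATF6 below siCtrl and Ceapin above DMSO with no overlap, and the difference was −0.79 (log2, SE 0.0397, edgeR adjusted p = 9.85e-17). ICAM1, an adhesion molecule, had effects of −0.41 for the siRNA and 0.31 for Ceapin, and TRAF1, a signalling adaptor, −0.42 for the siRNA and 0.48 for Ceapin. CCL20, a chemokine measured at low counts, had effects of −0.38 for the siRNA and 1.00 for Ceapin and a difference of −1.38 (log2, SE 0.143, edgeR adjusted p = 3.69e-09). Among 8 anti-apoptotic genes the difference was lower in 4 (50%) and higher in BCL2L1, with MCL1, CFLAR and BIRC2 opposite. Of all genes at 50 CPM or more 20% were lower. MCL1, an inhibitor of mitochondrial apoptosis, stood at 1083, 1091 and 1085 CPM in the siATF6 libraries, against 1323, 1328 and 1344 CPM in the siCtrl libraries, and at 798, 795 and 789.7 CPM in the Ceapin libraries, against 705, 682 and 708 CPM in the DMSO libraries. Its effects were −0.29 for the siRNA and 0.19 for Ceapin.

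**Figure D3:**
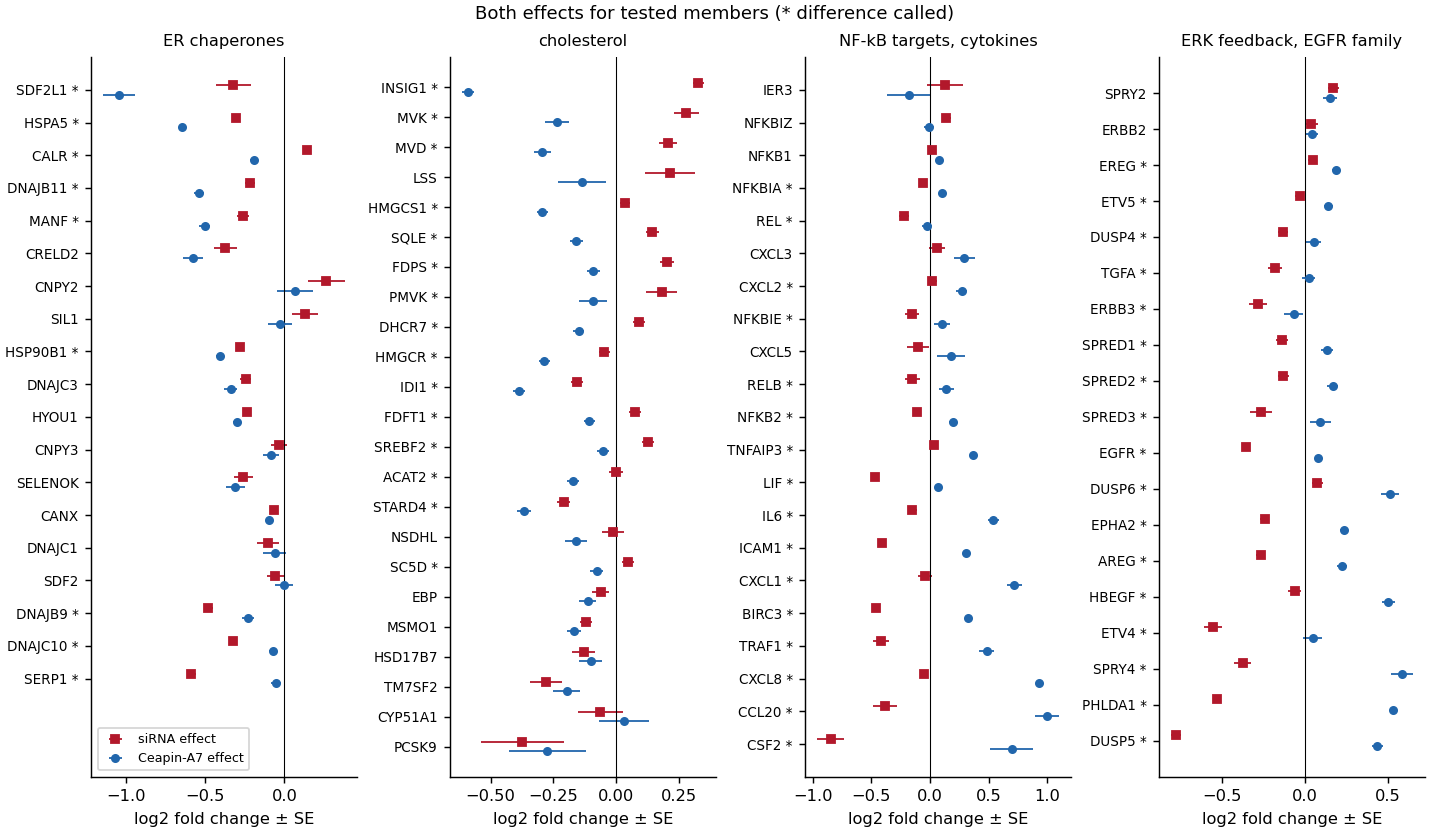
For tested members of 4 lists, of which 2 in the cholesterol list are not shown, squares give the siRNA effect and circles the Ceapin effect, as log2 fold change ± SE, and an asterisk marks a called difference. In the cholesterol list the circles lie left of the squares for most members, in the NF-kB and ERK lists they lie right of them, and among the ER chaperones both symbols lie mostly below 0 with their order depending on the gene.

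Interferon-stimulated genes, which restrict viruses, fell with the siRNA, and 1 of them was called with Ceapin. Of 31 tested members 16 fell with the siRNA and none rose, and 1 fell with Ceapin and none rose. The difference was lower in 13 (41.9%) and higher in none. Of all tested genes 11.1% were lower, and of those at 50 CPM or more 20%. The medians were −0.31 for the siRNA and 0.01 for Ceapin. The summed level of the 31 genes lay between 630 and 641 CPM in siATF6, 766 and 778 in siCtrl, 734 and 744 in Ceapin, and 742 and 751 in DMSO. OAS3, a sensor of double-stranded RNA, stood at 35.9, 37.3 and 36.9 CPM in the siATF6 libraries, against 84.3, 84.8 and 82.0 CPM in the siCtrl libraries, and at 91.5, 94.0 and 86.6 CPM in the Ceapin libraries, against 92.1, 92.3 and 91.3 CPM in the DMSO libraries. The siATF6 libraries lay far below the other 9, with a difference of −1.17 (log2, SE 0.0507, edgeR adjusted p = 2.3e-18). HERC6 (−0.80 for the siRNA and 0.02 for Ceapin), a ubiquitin ligase, and PARP14 (−0.58 for the siRNA and 0.03 for Ceapin), an ADP-ribosyltransferase, followed.

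Lists of growth and protein production had more higher than lower called differences, a lean that all genes at 50 CPM or more shared, with 30.1% higher and 20% lower. Ribosome biogenesis factors were higher in 18 (60.0%) and lower in none of 30, with 27 that rose and none that fell with the siRNA and medians of 0.23 for the siRNA and 0.02 for Ceapin. NOLC1, a nucleolar chaperone, stood at 428, 419.8 and 417 CPM in the siATF6 libraries, against 202, 199 and 197 CPM in the siCtrl libraries, and at 370.3, 373 and 376 CPM in the Ceapin libraries, against 366, 364 and 377 CPM in the DMSO libraries. As with GANAB, the siCtrl libraries alone were far below the rest. DNA replication genes were higher in 18 (54.5%) and lower in 3 (9.09%) of 33, with a median siRNA effect of 0.14 and a median Ceapin effect of −0.03. Among them MCM2, a subunit of the replicative helicase, fell (−0.47 for the siRNA and −0.04 for Ceapin) while MCM3, another, rose (0.27 for the siRNA and −0.03 for Ceapin). Mitosis genes were higher in 14 (41.2%) and lower in 4 (11.8%) of 34. The mitotic kinase gene MELK had a lower difference. It stood at 35.6, 34.2 and 32.7 CPM in the siATF6 libraries, against 129, 129 and 135 CPM in the siCtrl libraries, and at 179.6, 173 and 172 CPM in the Ceapin libraries, against 179, 181 and 175 CPM in the DMSO libraries, with the siATF6 libraries far below the other 9.

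Splicing factors were higher in 14 (50%) and lower in none of 28, cytosolic ribosomal proteins higher in 37 (47.4%) and lower in 4 of 78, and proteasome subunits higher in 16 (45.7%) and lower in 1 of 35. Nuclear genes of the respiratory chain were higher in 15 of 48 (31.2%), near the 30.1% of all genes at 50 CPM or more, and lower in none. Their median effects were small, from 0.05 to 0.07 for the siRNA and from −0.04 to −0.01 for Ceapin. With plain library totals in place of TMM scaling these counts came to 9 and 0 for splicing factors, 27 and 5 for ribosomal proteins, 11 and 1 for the proteasome and 10 and 1 for the respiratory chain, and the median effects of these 4 lists kept their sign. Ribosomal protein genes have near-identical processed copies, so their estimated counts are uncertain one by one. Of the 13 mitochondrially encoded genes 5 had a higher difference, and 2 with library totals. The calls of MT-CO3, MT-ND4 and MT-ND4L held in 4, 6 and 7 of the 12 fits without 1 library, while the share of mitochondrial counts differed between the arms as given above, and its part in this was not tested.

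The cytosolic heat-shock list was higher in 10 (52.6%) and lower in 2 (10.5%) of 19. For this list and the others of this paragraph, the shares to compare with are 30.1% and 20% of all genes at 50 CPM or more. HSPA8, the constitutive HSP70 of the cytosol, moved with Ceapin alone. It stood at 1392, 1403 and 1392 CPM in the siATF6 libraries, against 1392, 1344 and 1346 CPM in the siCtrl libraries, and at 1222, 1264 and 1209.9 CPM in the Ceapin libraries, against 1624, 1602 and 1641 CPM in the DMSO libraries. The Ceapin libraries were the lowest and the DMSO libraries the highest of the 12, with a difference of 0.43 (log2, SE 0.0282, edgeR adjusted p = 6.96e-14). HSPB1, a small heat-shock protein, fell with the siRNA alone (−0.61 for the siRNA and −0.07 for Ceapin). Targets of NRF2, the regulator of antioxidant genes, were higher in 13 (44.8%) and lower in 2 (6.90%) of 29, among them ME1 (0.71 for the siRNA and 0.01 for Ceapin), the malic enzyme. Actin cytoskeleton genes were higher in 14 (51.9%) and lower in 4 (14.8%) of 27, with 5 opposite members. ACTB, cytoplasmic actin, had effects of 0.31 for the siRNA and −0.10 for Ceapin. TPM4, a tropomyosin, stood at 559, 571 and 559.6 CPM in the siATF6 libraries, against 255, 254 and 262 CPM in the siCtrl libraries, and at 525, 519.8 and 529 CPM in the Ceapin libraries, against 589.7, 569 and 571 CPM in the DMSO libraries. The siCtrl libraries were again far below the others, and the difference was 1.27 (log2, SE 0.0304, edgeR adjusted p = 4.03e-25).

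**Figure D4:**
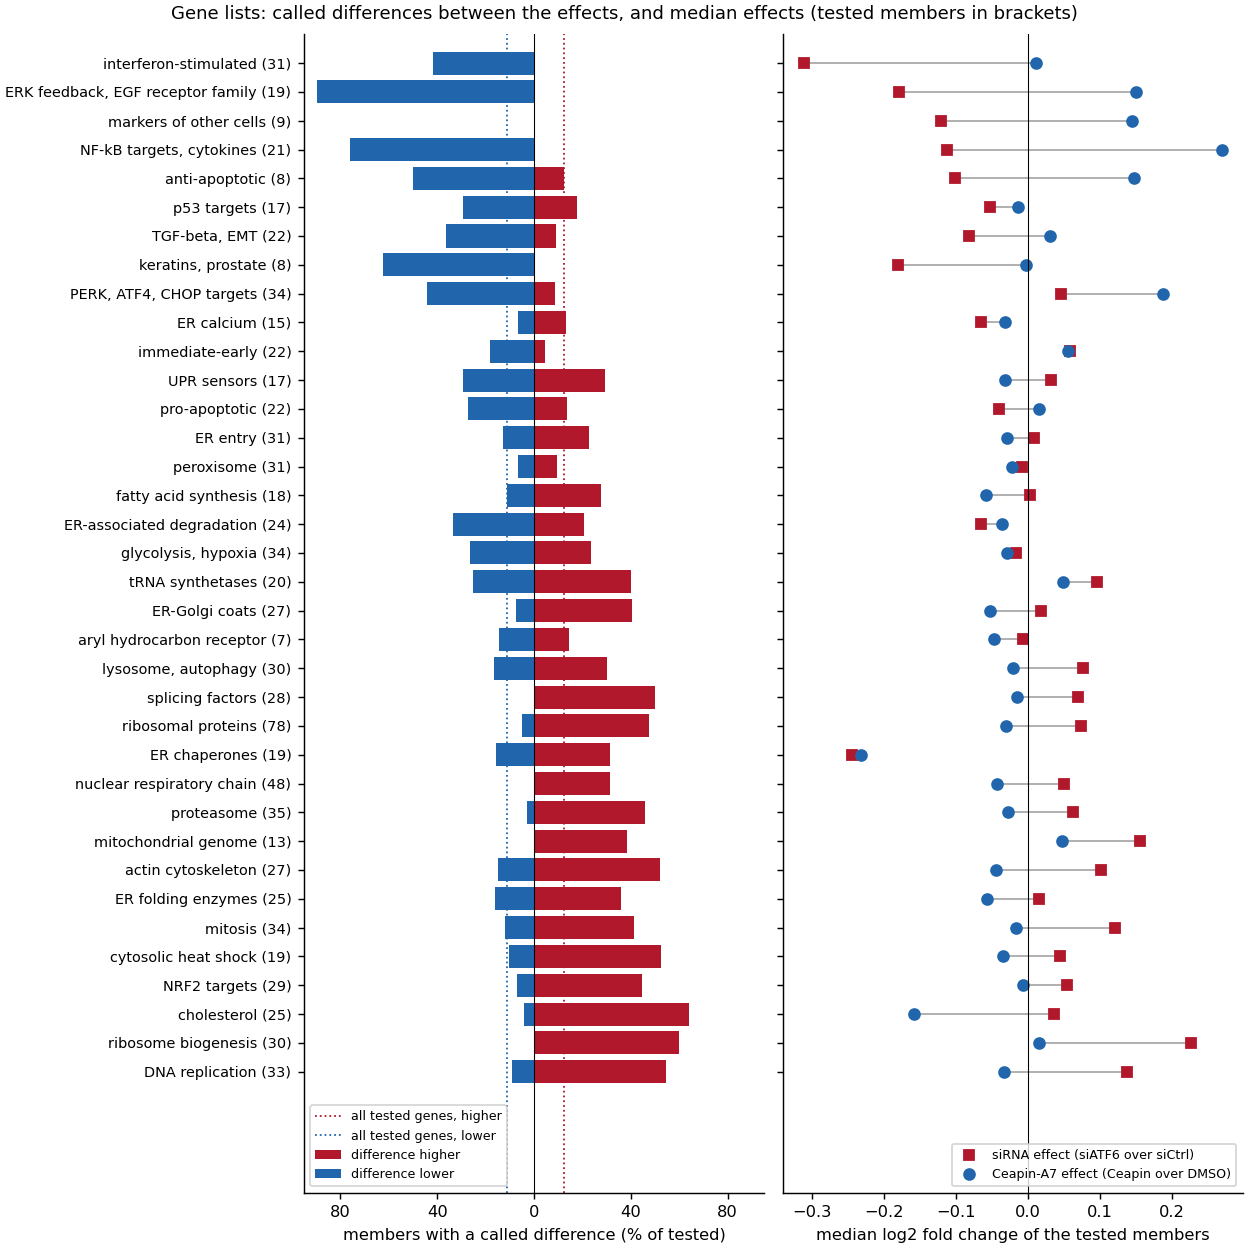
The left panel gives, for all 36 lists, the percentage of tested members with a higher (right of 0) and a lower (left of 0) called difference, with dotted lines at the shares over all tested genes, 12.3% higher and 11.1% lower; the right panel gives the median siRNA effect (squares) and the median Ceapin effect (circles). The ERK, NF-kB, keratin and interferon lists extend to the left only, while cholesterol, ribosome biogenesis, DNA replication, heat-shock and actin lists extend mainly to the right.

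In the remaining lists the shares are to be read against 12.3% higher and 11.1% lower of all tested genes and 30.1% and 20% of those at 50 CPM or more. The difference was higher in 8 (23.5%) and lower in 9 (26.5%) of 34 glycolysis and hypoxia genes, with HK2, a hexokinase, at −1.15 for the siRNA and 0.09 for Ceapin. It was higher in 3 (13.6%) and lower in 6 (27.3%) of 22 pro-apoptotic genes, higher in 3 (17.6%) and lower in 5 (29.4%) of 17 genes that p53 turns on, and higher in 2 (9.09%) and lower in 8 (36.4%) of 22 genes of TGF-beta signalling and epithelial-mesenchymal transition. In 30 lysosome and autophagy genes it was higher in 9 (30.0%) and lower in 5 (16.7%), near the shares of genes at 50 CPM or more. In 15 ER calcium genes, with 2 higher (13.3%) and 1 lower (6.67%), and in 31 peroxisome genes, with 3 higher (9.68%) and 2 lower (6.45%), the shares lay near or below those of all tested genes. Of 8 keratin and prostate genes 5 were lower (62.5%) and none higher. GDF15, a stress-induced cytokine of the p53 list, was counted near the filter's limit. It stood at 0.793, 0.633 and 0.630 CPM in the siATF6 libraries, against 1.11, 1.03 and 1.17 CPM in the siCtrl libraries, and at 0.995, 0.819 and 0.948 CPM in the Ceapin libraries, against 0.332, 0.339 and 0.388 CPM in the DMSO libraries. siCtrl lay above and DMSO below all other libraries, with effects of −0.68 for the siRNA (not called) and 1.37 for Ceapin and a difference of −2.05 (log2, SE 0.419, edgeR adjusted p = 0.000316), and DESeq2 gave it no adjusted p. TNFRSF10B, a death receptor that CHOP turns on, was opposite with −0.33 for the siRNA and 0.19 for Ceapin.

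Of the 230 opposite genes 59 belonged to one of the lists and 171 to none. CYP1B1 (GRCh38 chromosome 2, 38066973 to 38109902, − strand), a cytochrome P450 turned on by the aryl hydrocarbon receptor, had the largest opposite difference in the upward direction among the genes that met the naming rule. It stood at 251, 247 and 249 CPM in the siATF6 libraries, against 175, 171 and 180.5 CPM in the siCtrl libraries, and at 44.7, 47.8 and 48.5 CPM in the Ceapin libraries, against 92.2, 86.2 and 91.1 CPM in the DMSO libraries. The siATF6 libraries were the highest and the Ceapin libraries the lowest of the 12, with effects of 0.50 (SE 0.0262) for the siRNA and −0.94 (SE 0.0381) for Ceapin and a difference of 1.44 (log2, SE 0.0462, edgeR adjusted p = 1.01e-21). Among the other tested genes of the receptor's list, AHR itself had a lower difference and the rest were not called. NPTX1, a neuronal pentraxin (0.51 for the siRNA and −0.53 for Ceapin), TGFB3, a TGF-beta ligand (0.39 for the siRNA and −0.52 for Ceapin), and IL6R, the interleukin-6 receptor (0.39 for the siRNA and −0.29 for Ceapin), were further genes of this kind. TGFB3 averaged only 5.19 CPM, and each of its effects was called in 11 of the 12 fits without 1 library. DESeq2 gave its Ceapin effect no adjusted p.

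In the other direction, MMP1, interstitial collagenase, stood at 37.6, 36.8 and 36.9 CPM in the siATF6 libraries, against 90.6, 86.7 and 84.6 CPM in the siCtrl libraries, and at 13.1, 13.4 and 11.4 CPM in the Ceapin libraries, against 10.2, 9.26 and 9.74 CPM in the DMSO libraries. The siCtrl libraries were the highest and the DMSO libraries the lowest, and the difference was −1.62 (log2, SE 0.0901, edgeR adjusted p = 1.54e-15). PLAU, the plasminogen activator urokinase, stood at 159, 169 and 172 CPM in the siATF6 libraries, against 248, 254 and 250.1 CPM in the siCtrl libraries, and at 778, 794 and 762 CPM in the Ceapin libraries, against 614, 581 and 588 CPM in the DMSO libraries. It was lower in siATF6 than siCtrl and higher in Ceapin than DMSO, with effects of −0.59 for the siRNA and 0.39 for Ceapin. CD83, an immune surface protein (−0.89 for the siRNA and 0.28 for Ceapin), and RNF144B, a ubiquitin ligase (−0.51 for the siRNA and 0.41 for Ceapin), were of this kind too, and the Ceapin call of CD83 held in only 6 of the 12 fits without 1 library.

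Among genes that averaged 5 CPM or more and had stable calls, the largest differences were negative and came from the siRNA alone. After ATF6 these were ADPRH, an ADP-ribosylhydrolase (−2.16 for the siRNA and −0.05 for Ceapin), MELK (−1.93 for the siRNA and −0.03 for Ceapin), F13A1, a coagulation factor subunit (−1.94 for the siRNA and −0.06 for Ceapin), and SAMD5 (−1.61 for the siRNA and 0.27 for Ceapin). Genes that both agents moved in 1 direction but unequally were few. RTN3 (−0.70 for the siRNA and −0.09 for Ceapin), a protein that shapes ER tubules, and EIF4EBP2 (−0.72 for the siRNA and −0.16 for Ceapin), a repressor of translation initiation, fell more with the siRNA. RCAN1 (0.06 for the siRNA and 0.56 for Ceapin), an inhibitor of calcineurin, CLDN1 (0.09 for the siRNA and 0.46 for Ceapin), a tight junction protein, and ADM2 (0.17 for the siRNA and 0.51 for Ceapin), a peptide hormone, rose more with Ceapin. The siRNA call of RCAN1 held in 9 and the Ceapin call of RTN3 in 8 of the 12 fits without 1 library.

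The 3′ UTRs of genes with a lower difference often held the 7-base sequence GAGTCAT, which earlier work on these data had already picked out. Only the sense strand was searched, in 13449 tested genes with a 3′ UTR in GENCODE v29. It occurred in 431 of 1826 genes with a lower difference (23.6%), in 82 of 2049 with a higher difference (4.0%) and in 635 of 9574 with no called difference (6.63%), against 8.54% of all. By the ratio of its share in lower genes to its share in all, 2.77, it ranked 1 among 15998 sequences of this length found in at least 100 genes. Its share was 20.7% in genes that fell and 4.01% in genes that rose with the siRNA, and 10.3% in genes that fell and 12.0% in genes that rose with Ceapin. It was 22.3% in genes with siATF6 libraries below the other 9, and 18.9% in genes with siCtrl libraries above the other 9. Lower genes also had longer 3′ UTRs, with a median of 2324 bases against 1354 for all. Among UTRs of 500 to 2000 bases the sequence again ranked 1, of 12684, with a ratio of 3.04. AGTCATA, which overlaps it, ranked 2 in both searches, with ratios of 2.54 and 2.93.

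Both ATF6 sites are shown, with those of a choice of genes described above, ADM2 among them, which rose with the siRNA, each with 9 bases on either side, on the gene's strand, with GENCODE v29 coordinates on GRCh38 and the 7-base sequence in capitals.
ATF6 (chr1:161962221-161962245, + strand): atgttatgtGAGTCATtcttaagtg
ATF6 (chr1:161962882-161962906, + strand): atcagtcctGAGTCATtttaactta
SERP1 (chr3:150544287-150544311, − strand): tttcttcatGAGTCATtccaagttt
DNAJB9 (chr7:108573799-108573823, + strand): tgtataattGAGTCATtcagtaaag
SPCS3 (chr4:176328683-176328707, + strand): gtgcctgtaGAGTCATaataactgt
YARS1 (chr1:32775931-32775955, − strand): tccaccactGAGTCATctgctgtct
CEBPG (chr19:33381151-33381175, + strand): tgagagactGAGTCATaactgattt
BIRC3 (chr11:102338171-102338195, + strand): aacacgtccGAGTCATaactctgtc
PHLDA1 (chr12:76029026-76029050, − strand): aaggtctagGAGTCATaacttttgt
PLAU (chr10:73916617-73916641, + strand): tttgcagtaGAGTCATctccatcag
SAMD5 (chr6:147564781-147564805, + strand): aaggcatttGAGTCATaacttagtt
ADM2 (chr22:50484479-50484503, + strand): tcggcctcaGAGTCATgtgccctgt
The sources used here do not give the sequence of the ATF6 siRNA, and its relation to these sites was not tested.

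The median siRNA effect was lower with more copies, and the median Ceapin effect was near 0 at every number of copies. With 0, 1 and 2 or more copies (12301, 1030 and 118 genes) the median siRNA effect was 0.009, −0.131 and −0.186, and the median Ceapin effect −0.003, −0.003 and −0.012. The difference was lower in 11.3%, 36.5% and 46.6% of these genes and higher in 16.0%, 7.38% and 5.08%. Among 3′ UTRs of 500 to 2000 bases it was lower in 10.2% with 0 copies and 34.2% with 1. Only 8 genes of that length had 2 or more copies, and 3 of them were lower (37.5%). Their median difference was −0.129, against −0.173 with 1 copy, so a step beyond 1 copy cannot be judged at that length. Within the classes, the sequence was found in 26.1% of the siRNA-alone genes and 24.3% of the opposite genes with a lower difference, and in 4.35% of the Ceapin-alone genes with a lower difference.

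**Figure D5:**
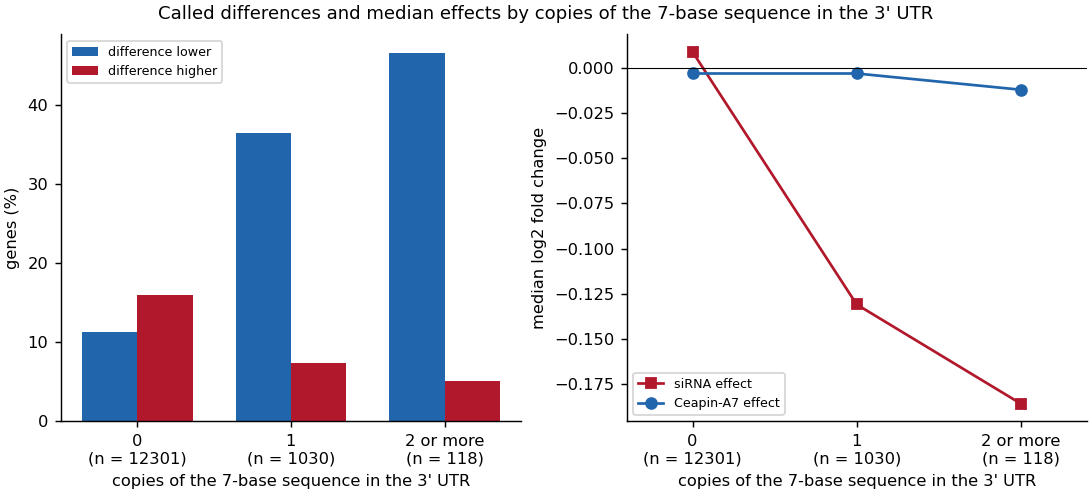
For tested genes with 0, 1 and 2 or more copies of the 7-base sequence in the 3′ UTR, bars give the percentage with a lower and a higher called difference (left) and lines the median log2 fold change of the siRNA effect and the Ceapin effect (right). The lower share is 11.3% without and 46.6% with 2 or more copies, while the median Ceapin effect stays between −0.012 and −0.003. All lengths of 3′ UTR examined are included.

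The lists were also counted with genes that hold GAGTCAT set aside, while genes with AGTCATA alone stayed in. All 3 ER chaperone genes with a lower difference, SERP1, DNAJC10 and DNAJB9, carried GAGTCAT, DNAJC10 within an annotated 3′ UTR of 17332 bases. The 16 chaperone genes without GAGTCAT had a higher difference in 6 and a lower one in none. Without carriers of GAGTCAT the difference was lower in 14 of 16 ERK and EGF family genes, 14 of 19 NF-kB and cytokine genes, 12 of 29 interferon-stimulated genes and 13 of 31 ATF4 and CHOP targets, and higher in 16 of 24 cholesterol genes. SEL1L, FAF2, DUSP5, MMP1, OAS3, MELK, F13A1 and ADPRH had no copy of GAGTCAT in the transcript examined.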

How the data were processed

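RNA of 12 DU145 libraries was measured by RNA-seq. The authors deposited estimated counts per gene from Salmon, as whole numbers with no depth scaling, with genome build hg38 per the submitters' processing notes. The Salmon version and the annotation release are not given in the sources used here. No library holds a gene below 1 count, so a gene at 0 anywhere was not analysed here. Groups were taken from the sample titles, and the columns named NC were matched to siCtrl by elimination and number.

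All 12 libraries were fitted together in edgeR 4.0.16 (R 4.3.3), with filterByExpr by group (3616 genes removed, 17823 tested), TMM scaling and quasi-likelihood dispersions (1 term per group, 8 residual degrees of freedom). The filter works on counts: mean counts ran from 5.33 upwards in tested genes, and up to 15.5 in removed ones. Tests were two-sided, and adjusted p-values are Benjamini-Hochberg over all tested genes, with 0.05 as the threshold. Standard errors of log2 effects come from the F statistic, and levels are TMM-scaled CPM. No source mentions molecular identifiers, and the spread between replicates served as the error. In simulated data with 50 genes changed at each size, the difference was called in 20 at 1.2-fold, 30 at 1.5-fold, 34 at 2-fold and 46 at 4-fold, with 12 calls among 17623 unchanged genes. Changes were made in siATF6 only and in far fewer genes than were called in the reported fit. These rates therefore may not carry over to that fit.

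The comparisons and the 36 gene lists were chosen with earlier results of these data known, so list counts are descriptions. Named genes are 11 stress response genes taken in any case, the largest differences (8 in each direction overall and among opposite genes, 4 in each direction in the other classes) with a mean of at least 5 CPM that edgeR, DESeq2 1.42.0, limma-voom (limma 3.58.1) and all fits without 1 library called, and up to 4 called members of each list by p. Further list members were named after their values were seen. Positions and 3′ UTRs (1 transcript per gene, at least 50 bases) come from GENCODE v29 (GRCh38), and promoters from RefSeq (GRCh38.p14), of which 11933 matched tested genes. Alternatives were DESeq2, limma-voom, other scalings and filters, a stricter threshold, a minimum difference, a replicate block and leaving out each library. A few genes that the lists or rules hold are not reported here.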

Additional observations from a re-analysis of the deposited data

Results flagged for a closer look

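The effects of the ATF6 siRNA and of Ceapin-A7 differed by a test of the difference itself in 4167 of 17823 genes, at an edgeR adjusted p under 0.05. In 230 of them both effects were called and had opposite signs, and 101 of these kept that pattern in every fit that left out 1 library. Groups of 3 libraries were not searched for single libraries that lie apart.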

How the results depend on the processing

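No gene with a called difference both in the reported fit and under another tool, scaling or filter, with the block or without 1 library changed sign there. Leaving out each library gave 3763 to 4055 genes with a called difference, 19 to 51 with both effects in 1 direction and the siRNA effect larger, and 272 to 449 that fell with Ceapin. DESeq2 called 3271 genes, 3255 of them shared with edgeR's 4167 (201 of those had no DESeq2 adjusted p), and left 204 with neither effect called. At an adjusted p under 0.01, Ceapin was called in 472 genes (240 higher, 232 lower), opposite effects in 126, Ceapin alone in 133, 1 direction with the siRNA effect larger in 14, with the Ceapin effect larger in 15, and neither in 195. With a minimum of 1 on the log2 scale, the difference was called in 198 genes (54 higher, 144 lower), the siRNA effect in 138 (31 higher, 107 lower) and the Ceapin effect in 20 (9 higher, 11 lower). For the classes the minimum was set on the difference alone, and called effects of any size were taken. The classes then held 11 opposite genes, 118 with the siRNA alone, 12 with Ceapin alone, 0 in 1 direction with either effect larger, and 57 with neither. Library totals gave 46.2% higher among 4084 called genes, against 52.7% with TMM, so the majority direction turned, and small list medians crossed 0 (siRNA effect for ER entry and fatty acid genes, Ceapin effect for NRF2 targets and keratin and prostate genes). Replicate numbers did not pair the libraries (correlations of same-numbered deviations from −0.087 to 0.035), and a replicate block called 4126 genes, 4063 of them shared. Among named genes, EHHADH, KRT18, MT-CO3, MT-ND3, MT-ND4, MT-ND4L, RCN2 and XBP1 lost the called difference under at least 1 alternative, and ABCD3 gained one without siCtrl replicate 3 (adjusted p = 0.0487). The causes were not tested. Genes below 5 CPM are limited by depth, with a median standard error of 0.386.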
